A study of Mus musculus with 18 samples.

Results

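The 4 Hox gene clusters were examined in mouse CD4 T cells for where chromatin was accessible. Members were 38 Hox genes, matched by exact symbol to the genes that the authors named for each accessible region. There were 10 Hoxa genes on chromosome 6, 10 Hoxb genes on chromosome 11, 9 Hoxc genes on chromosome 15 and 9 Hoxd genes on chromosome 2. Of the 65983 regions in the table, 35 named at least 1 member. At least 1 region named 31 of the 38 members, and a region overlapped 27 of them.

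The 18 samples had been assayed by ATAC-seq, where an enzyme inserts sequencing adapters into accessible DNA. They formed 6 groups of 3: Id3 knockout (labelled KO) and wild type (WT) cells, each as Th1 cells at 24 h and as Tcmp and Teff cells at 72 h, cell labels that are given here as the submitters wrote them. All groups started from naive CD4 T cells that were stimulated with anti-CD3/CD28 beads and grown in Th1 medium with IL2, IL12 and an antibody to IL4. The sources used here do not give the strain, the kind of knockout allele, the age of the mice or the origin of the 3 samples in each group. Id3 is an inhibitor of E proteins, transcription factors that direct lymphocyte development. At Id3 itself there were 2 promoter regions, and with no value per sample the knockout could not be checked.

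The table held comparisons between groups and no value of any sample. Its 6 comparisons carried 1 and the same list of regions, in 6 of 6 with identical positions, widths and gene names. The p-value of the best window in a region never fell from the top of the table to its end, with 0 falls in each of the 6 comparisons, so that the statistics ran with the genome order of the rows. For this reason no fold change or p-value is given for a Hox region, and the effect of Id3 on these genes was not analysed here. What follows describes which Hox genes had accessible chromatin in the region list as a whole. The sources used here do not tell which samples contributed to a region or how deeply they were sequenced, so the values have no replicate error.

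Hox genes encode homeodomain transcription factors that give cells their place along the body axis of the embryo. They lie in 4 clusters that arose by duplication, and genes with the same number in different clusters are paralogues. Their order along the chromosome follows their order of use, from low numbers at the 3' end of a cluster to high numbers at its 5' end. Polycomb proteins keep the clusters silent in cells where they are not used and Trithorax proteins keep them active. In blood, Hoxa and Hoxb genes such as Hoxa9 and Hoxb4 are known for roles in stem and progenitor cells, and their expression falls as cells mature.

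Each region was made of overlapping windows, and the number of windows is a measure of how wide the stretch was that the authors kept. Regions were 300 to 1100 bp wide and held 1 to 16 windows. Class letters in the table say what a region overlaps: P for a promoter, E for an exon and I for an intron. Class P regions without an exon or intron reached up to 3000 bp upstream of the gene in the table, and flanking genes were listed up to 5000 bp away. A class P region is termed a promoter region here, and distances are those listed to the gene's nearest exon outside the region.

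The sequences of 6 Hox promoters show how unlike each other these start sites are. They were taken from RefSeq on build GRCm38.p6, whose coordinates cannot be set beside the regions, which are on GRCm39. Each runs 5' to 3' along the gene's strand, from 250 bases before to 50 bases after the start, with CpG dinucleotides in capitals. The first group of 3 belongs to genes that had a promoter region. Hoxa9 lies at chr6:52227321-52227620 (minus strand), Hoxb4 at chr11:96318017-96318316 (plus strand) and Hoxd13 at chr2:74667975-74668274 (plus strand).
Hoxa9: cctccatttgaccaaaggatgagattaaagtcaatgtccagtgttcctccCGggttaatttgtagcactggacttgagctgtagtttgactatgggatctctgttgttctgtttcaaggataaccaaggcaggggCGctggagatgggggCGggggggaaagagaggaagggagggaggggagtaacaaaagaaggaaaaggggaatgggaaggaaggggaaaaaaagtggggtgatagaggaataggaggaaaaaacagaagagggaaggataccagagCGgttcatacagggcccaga
Hoxb4: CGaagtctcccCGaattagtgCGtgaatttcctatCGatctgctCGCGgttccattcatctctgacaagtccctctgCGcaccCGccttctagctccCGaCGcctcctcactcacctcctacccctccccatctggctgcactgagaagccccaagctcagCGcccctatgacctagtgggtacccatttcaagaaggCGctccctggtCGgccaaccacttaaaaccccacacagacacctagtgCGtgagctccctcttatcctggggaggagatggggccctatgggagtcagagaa
Hoxd13: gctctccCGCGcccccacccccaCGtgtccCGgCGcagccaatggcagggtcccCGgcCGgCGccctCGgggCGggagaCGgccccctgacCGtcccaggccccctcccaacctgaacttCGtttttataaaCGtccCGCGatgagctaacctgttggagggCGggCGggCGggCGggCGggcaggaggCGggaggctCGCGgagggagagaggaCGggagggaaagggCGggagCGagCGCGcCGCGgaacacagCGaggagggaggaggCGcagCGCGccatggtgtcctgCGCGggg

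The other 3 belong to genes without a promoter region. Hoxa13 lies at chr6:52260831-52261130 (minus strand), Hoxd10 at chr2:74691641-74691940 (plus strand) and Hoxb1 at chr11:96365508-96365807 (plus strand).
Hoxa13: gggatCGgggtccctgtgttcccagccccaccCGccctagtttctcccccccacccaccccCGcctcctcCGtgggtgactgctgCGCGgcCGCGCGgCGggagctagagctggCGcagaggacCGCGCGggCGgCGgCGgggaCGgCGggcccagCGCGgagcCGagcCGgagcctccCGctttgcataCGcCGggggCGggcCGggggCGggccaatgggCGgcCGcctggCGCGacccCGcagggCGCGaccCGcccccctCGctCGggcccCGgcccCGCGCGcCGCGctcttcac
Hoxd10: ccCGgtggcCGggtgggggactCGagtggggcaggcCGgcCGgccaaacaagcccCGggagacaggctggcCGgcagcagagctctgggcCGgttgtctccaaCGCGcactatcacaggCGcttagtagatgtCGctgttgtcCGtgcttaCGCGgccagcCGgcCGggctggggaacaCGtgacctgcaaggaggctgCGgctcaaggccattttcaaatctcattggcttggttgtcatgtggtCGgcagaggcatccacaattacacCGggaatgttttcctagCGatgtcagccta
Hoxb1: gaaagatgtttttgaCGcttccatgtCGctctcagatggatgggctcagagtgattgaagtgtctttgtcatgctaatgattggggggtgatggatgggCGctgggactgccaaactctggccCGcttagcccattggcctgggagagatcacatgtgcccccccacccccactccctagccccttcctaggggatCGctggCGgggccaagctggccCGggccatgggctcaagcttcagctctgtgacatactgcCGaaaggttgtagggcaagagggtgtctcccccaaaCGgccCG

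Among these 6 promoters, CpG content did not sort with whether the gene had a promoter region. With a promoter region, Hoxa9 held 4 CpG, Hoxb4 held 14 and Hoxd13 held 37. Without one, Hoxb1 held 10, Hoxd10 held 22 and Hoxa13 held 45, so the groups overlapped.

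A promoter region was listed for 24 of the 38 members (63.2%). Another 3 members, Hoxa3, Hoxb2 and Hoxc11, had regions over an exon or intron alone. Hoxa2, Hoxa5, Hoxa13 and Hoxd9, 4 members in all, were named only as flanking genes. The remaining 7 members, Hoxb1, Hoxb13, Hoxc4, Hoxc12, Hoxc13, Hoxd10 and Hoxd11, were named by no region. The share with a promoter region was close to that of all 21900 protein-coding genes of RefSeq, of which 61.6% had one by symbol. A gene whose RefSeq symbol differs from the authors' name for it counts there as without one, which may lower that share. By cluster it was 6 of 10 for Hoxa, 7 of 10 for Hoxb, 5 of 9 for Hoxc and 6 of 9 for Hoxd.

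**Figure D1:**
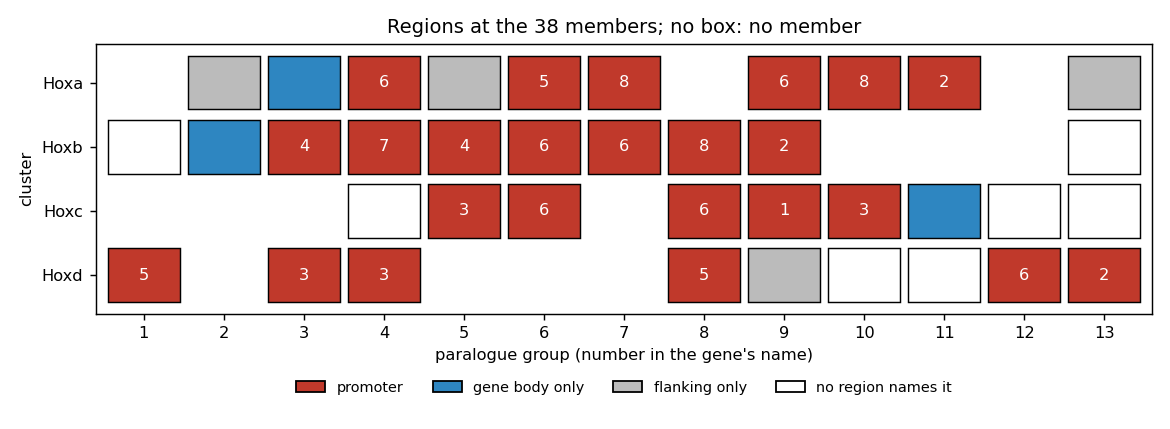
The 38 members by cluster (rows) and paralogue group (columns), coloured by the closest kind of region that names them; the number is the windows in the widest promoter region. Filled promoter boxes gather in groups 4 to 9, where 16 of 19 members had one, and all members of groups 6, 7 and 8 had one. The boxes of Hoxc5 and Hoxd4 are filled only through regions shared with Hoxc10 and Hoxd3. Those of Hoxb7, Hoxb8, Hoxc8 and Hoxd12 are filled only through regions more than 1 kb upstream.

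The share of members with a promoter region was larger for paralogues in the middle of the clusters than at the ends. In groups 4 to 9 there were 16 such genes among 19 members (84.2%), in groups 1 to 3 there were 3 among 7, and in groups 10 to 13 there were 5 among 12 (41.7%). Of the 16, Hoxc5 counted only through the promoter and exon region of Hoxc10, a gene of another block. Hoxd4 counted only through a promoter and exon region shared with Hoxd3, also of another block. The blocks of groups were set after the regions had been seen, so these counts are a description. Every member of groups 6, 7 and 8 had a promoter region: Hoxa6, Hoxb6 and Hoxc6, then Hoxa7 and Hoxb7, then Hoxb8, Hoxc8 and Hoxd8. For Hoxb7, Hoxb8 and Hoxc8, however, the only such region lay 1749, 2631 and 2689 bp upstream. Both members of group 2, Hoxa2 and Hoxb2, lacked one. In group 13 the exception was Hoxd13, the gene at the 5' end of its cluster that patterns digits.

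**Figure D2:**
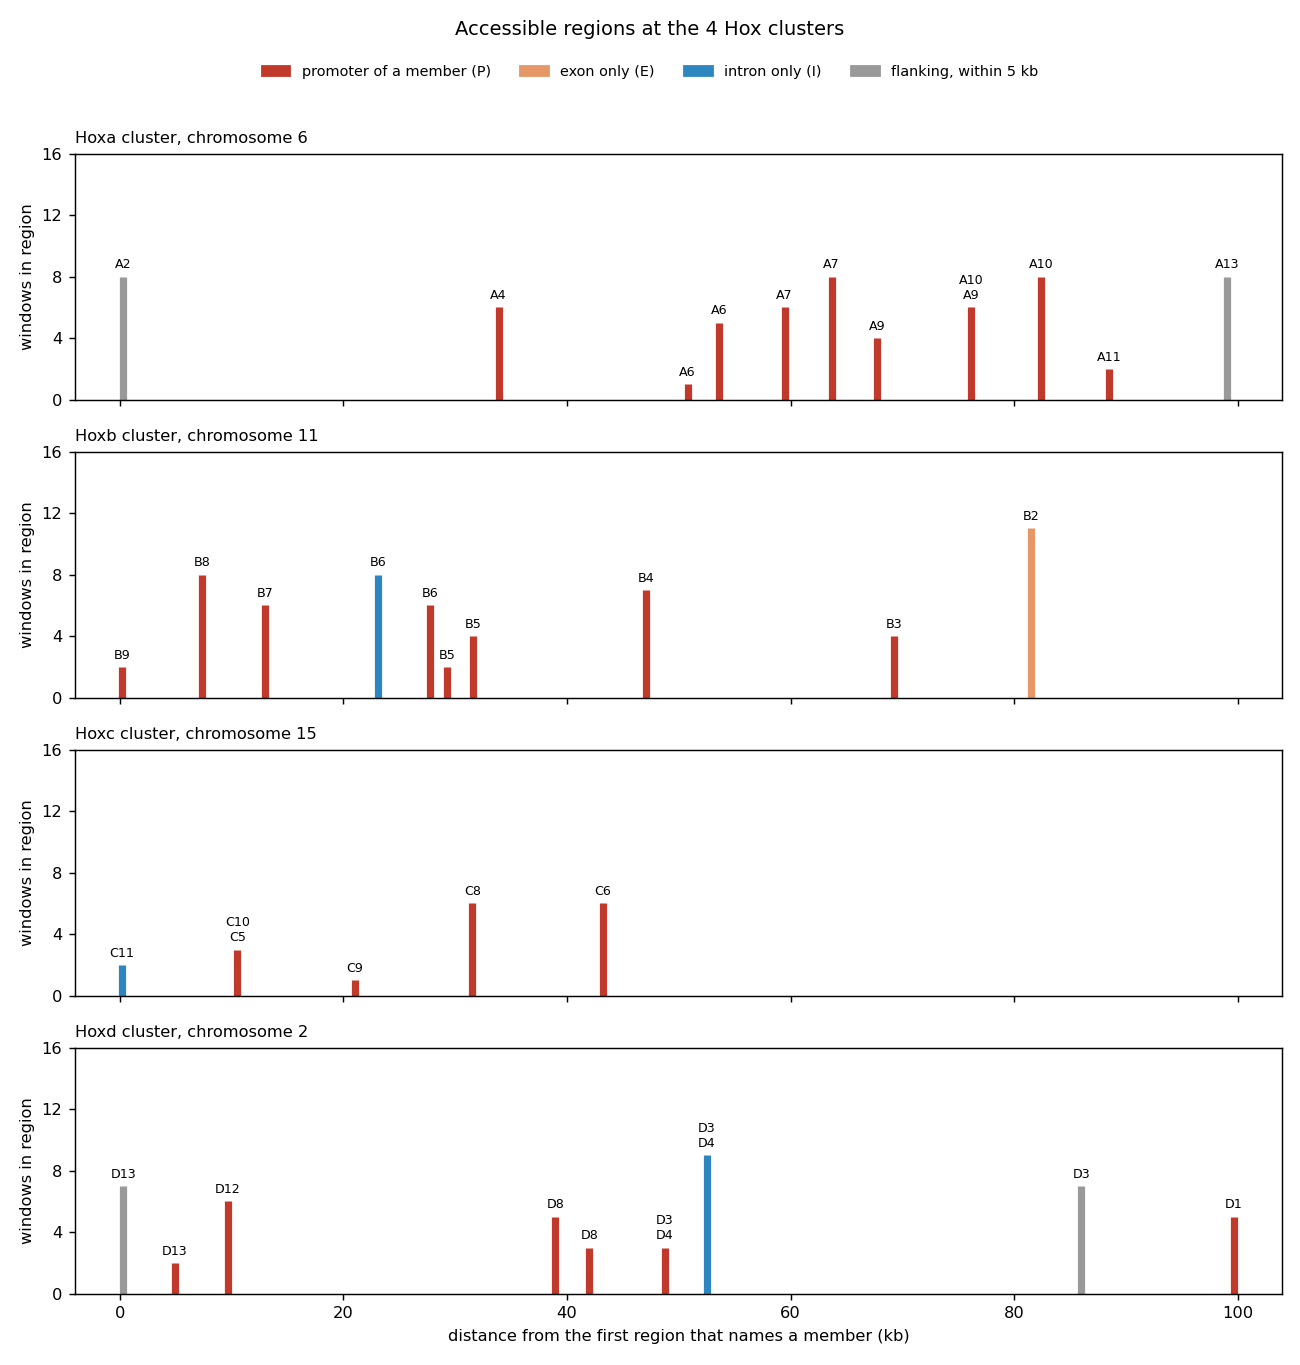
Regions that name a member, by distance in kb from the first of them (horizontal axis) and by number of windows (vertical axis), for each cluster. Colours give the class for the members named above each bar; the Hoxc cluster had 5 regions within 43.5 kb, and the other clusters 9 to 11 regions.

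The Hoxa cluster was named by 11 regions over 99.4 kb. Its regions were densest from Hoxa6 to Hoxa11, a stretch that holds Hoxa9, with gaps of 2.4 to 7.9 kb between them. Hoxa9 had a promoter and exon region of 4 windows (450 bp, chr6:52202601-52203050), and a second promoter region of 6 windows, 2882 bp upstream, that also covered a promoter and exon of Hoxa10. Hoxa10 had a further promoter and exon region of 8 windows (chr6:52217201-52217850). Hoxa7 had a pair of promoter and exon regions, of 6 windows (chr6:52194301-52194850) and 8 windows (chr6:52198451-52199100). These 8-window regions at Hoxa7 and Hoxa10, with 1 at Hoxb8, were the widest promoter regions of any member.

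The other Hoxa promoter regions held 1 to 6 windows. Hoxa4 had a promoter and exon region of 6 windows (chr6:52168701-52169250), which also lay in an intron of Hoxa3 as annotated. Hoxa6 had a single-window promoter region 49 bp upstream of the gene (300 bp, chr6:52185751-52186050) and another of 5 windows 2749 bp upstream. Hoxa11, which acts in limb and uterus, had a promoter region of 2 windows, 611 bp upstream (chr6:52223401-52223750). Hoxa3 overlapped 3 regions, all in its annotated introns, and these are the regions at Hoxa4 and Hoxa6. Hoxa5 had no overlap, and the nearest listed region lay 4184 bp upstream. Hoxa2 and Hoxa13 were each approached from the 3' side, by 8-window regions at 3647 bp and 224 bp past their ends.

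The low-numbered end of Hoxa was sparse in regions. Between the region near Hoxa2, which overlapped the non-coding gene Hotairm1, and that of Hoxa4 lay 32.95 kb without a region, and 17.0% of all gaps between neighbouring regions in the genome were at least as long. The median gap over the genome was 8.9 kb.

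The Hoxb cluster was named by 10 regions over 82.0 kb, and 8 of its 10 members were overlapped. Hoxb4, a factor known for the self-renewal of blood stem cells, had a promoter and exon region of 7 windows (600 bp, chr11:96209201-96209800). Hoxb6 had a promoter and exon region of 6 windows (chr11:96189951-96190500) and an intron region of 8 windows (chr11:96185201-96185850). Hoxb5 had a promoter and exon region of 4 windows and a promoter region of 2 windows, and Hoxb3 had a promoter and exon region of 4 windows (chr11:96231451-96231900). Hoxb9 had a promoter and exon region of 2 windows (chr11:96162451-96162800).

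At Hoxb7 and Hoxb8 the promoter regions lay away from the start. For Hoxb8, a region of 8 windows lay 2631 bp upstream (chr11:96169451-96170100). For Hoxb7, a region of 6 windows lay 1749 bp upstream and overlapped an exon of Hoxb8 (chr11:96175151-96175700). The region with the most windows at any member was at Hoxb2, with 11 windows over an exon (800 bp, chr11:96243601-96244400), and it was no promoter region. It also covered an exon of an unnamed gene on the opposite strand. Past it, 54.0 kb held no region up to the next one on the side of Hoxb1 and Skap1, and 9.74% of all gaps were at least as long. Hoxb1 and Hoxb13, the outermost genes of the cluster, were named by no region.

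The Hoxc cluster had the fewest regions, 5 over 43.5 kb, and they were small. Hoxc10 had a promoter and exon region of 3 windows (400 bp, chr15:102874851-102875250), which was also listed as the promoter of Hoxc5. Hoxc5 had 3 further regions in its annotated introns, which were the regions at Hoxc9, Hoxc8 and Hoxc6. At Hoxc9 the promoter and exon region was 1 window (300 bp, chr15:102885451-102885750), the smallest width in the table. Hoxc8 and Hoxc6 had the larger ones, of 6 windows each: that of Hoxc8 lay 2689 bp upstream (chr15:102895801-102896350) and that of Hoxc6 overlapped its promoter and an intron (chr15:102907501-102908050). Hoxc11 had an intron region of 2 windows (chr15:102864551-102864900).

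Long stretches without regions bounded these 5. On the side of Hoxc12 and Hoxc13 the gap was 193.8 kb, and on the side of Hoxc4 it was 128.75 kb. Of all gaps in the genome, 2.59% and 3.70% were at least as long. At the far ends of these gaps lay a region without an overlapping gene, towards Calcoco1, and a region in an intron of D930007P13Rik, towards Smug1.

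The Hoxd cluster was named by 9 regions over 99.9 kb. Hoxd13 had a promoter and exon region of 2 windows (350 bp, chr2:74498551-74498900) and a flanking region of 7 windows 4254 bp upstream. Hoxd12 had a promoter region of 6 windows, 1607 bp upstream (chr2:74503201-74503750). Hoxd8 had a promoter and exon region of 3 windows (chr2:74535601-74536000) and a promoter region of 5 windows 1959 bp upstream. Hoxd3 and Hoxd4 shared a promoter and exon region of 3 windows (chr2:74542351-74542750) and an intron region of 9 windows (chr2:74545951-74546650), with the same classes and distances listed for both. Hoxd1 had a promoter and exon region of 5 windows (chr2:74593201-74593700).

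Long stretches of this cluster held no region. Between the regions of Hoxd12 and Hoxd8 lay 28.75 kb without a region, and by gene order this is where Hoxd11, Hoxd10 and Hoxd9 lie. Hoxd11 and Hoxd10 were named by no region, and Hoxd9 by 1 that lay 1949 bp past its 3' end. Another gap of 32.85 kb followed the intron region of Hoxd3 and Hoxd4. In the genome, 19.6% and 17.1% of gaps were at least as long.

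Inside the spans that hold the members' regions, regions were closer together than around them. From the first to the last region that named a member there were 11.1 regions per 100 kb in Hoxa, 13.4 in Hoxb, 11.5 in Hoxc and 9.01 in Hoxd. In the 500 kb on either side the values were 3.50, 6.60, 6.10 and 1.90 per 100 kb, and over the genome 2.49. Since each span begins and ends at a region of the members, its density is raised by the way it was drawn, and Hox genes themselves lie close together. The spans leave out end members that no region named: Hoxb1, Hoxb13, Hoxc4, Hoxc12 and Hoxc13. For Hoxc, the gaps of 193.8 kb and 128.75 kb on either side thus count as around it. Densities over whole clusters were not computed, so the order need not hold for them. Regions covered 4.60% (Hoxd) to 7.32% (Hoxb) of the spans.

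Of the 35 regions, 27 (77.1%) were a promoter region of a member, 1 was over an exon, 3 were in introns and 4 were flanking. Among all regions, 34.7% were promoter regions of some gene, and 32.7% were in introns without a promoter or exon. These sets are unlike: the 35 were picked for naming a Hox gene, while 26.0% of all regions overlapped no gene. In 20 of the 24 members with a promoter region, at least 1 such region also touched an exon or intron of the gene or lay within 1 kb of the next exon. In the other 4, Hoxb7, Hoxb8, Hoxc8 and Hoxd12, the regions lay 1607 to 2689 bp upstream.

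The promoter regions of Hox genes held few windows. Their median was 5 windows (500 bp, 27 regions), against 7 windows (600 bp) over all 22912 promoter regions. Up to 3 windows were held by 9 of the 27 (33.3%), at Hoxa6, Hoxa11, Hoxb5, Hoxb9, Hoxc9, Hoxc10 with Hoxc5, Hoxd3 with Hoxd4, Hoxd8 and Hoxd13, against 10.1% of all promoter regions. At least 8 windows were held by 3 of the 27 (11.1%), against 41.6% of all. By cluster the median was 6 windows in Hoxa, 5 in Hoxb, 4.5 in Hoxc and 4 in Hoxd.

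**Figure D3:**
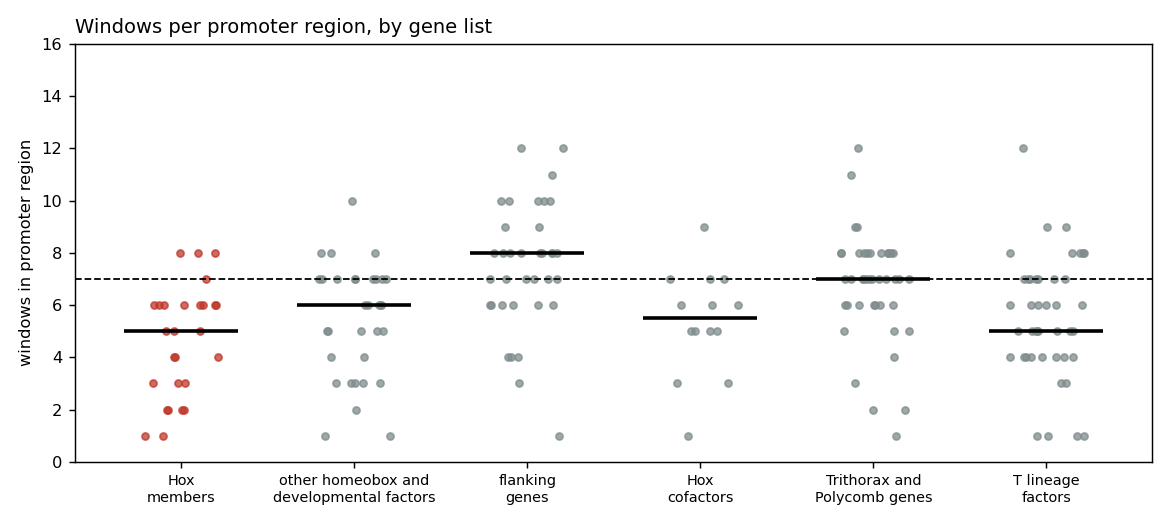
Windows in each promoter region (points, 1 per region, spread sideways for sight) by gene list, with the list's median (solid bar) and the median of all promoter regions, 7 (dashed line). Hox regions reach no more than 8 windows and have a median of 5; T lineage factors have the same median and reach 12 windows, and flanking genes have a median of 8.

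Other lists held small promoter regions too. Promoter regions of 19 T lineage factors, such as Tcf7, Gata3 and Bach2, also had a median of 5 windows, but there 14.0% held up to 3. In a list of 68 other homeobox and developmental factors, genes that like Hox genes are mostly used in embryos, the median was 6 and 24.2% held up to 3. In 9 Hox cofactors of the Meis, Pbx and Pknox families the median was 5.5.

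Genes around the clusters had more and wider promoter regions than those inside, by counts and medians. In a list of 30 genes next to or near the 4 clusters, 26 (86.7%) had a promoter region, with a median of 8 windows. Skap2, an adaptor protein gene beside Hoxa, had a promoter region of 8 windows, Tax1bp1 of 12, Cbx1 near Hoxb of 10, Smug1, a DNA repair gene beside Hoxc, of 8, and Mtx2, a mitochondrial gene beside Hoxd, of 11. Evx1 and Evx2, homeobox genes at the 5' ends of Hoxa and Hoxd, were among 7 genes of the list without a promoter region of at least 6 windows. Evx1 had 1 of 3 windows, Hnrnpa1 of 1 and Nfe2l2 of 4. Evx2, with an exon region, and Ttll6, Gip and Calcoco2 had no promoter region.

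**Figure D4:**
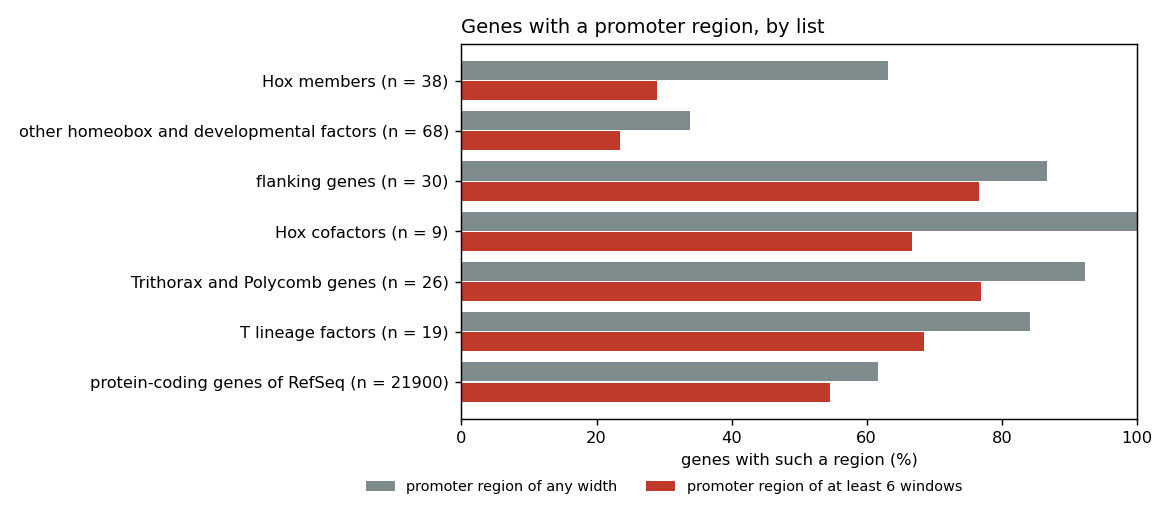
Share of genes in each list with a promoter region of any width (grey) and with 1 of at least 6 windows (red), in percent; n is the number of genes. Hox members drop from 63.2% to 28.9%, while all protein-coding genes go from 61.6% to 54.6%.

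How many Hox genes counted as accessible thus turned on the width asked for. With at least 6 windows, the median of all regions, 11 members (28.9%) had a promoter region: Hoxa4, Hoxa7, Hoxa9, Hoxa10, Hoxb4, Hoxb6, Hoxb7, Hoxb8, Hoxc6, Hoxc8 and Hoxd12. Over all protein-coding genes the share went from 61.6% to 54.6%. For the other developmental factors it went from 33.8% to 23.5%, for the flanking genes from 86.7% to 76.7%, for the T lineage factors from 84.2% to 68.4% and for the cofactors from 100% to 66.7%. By any width Hox genes thus stood above the other developmental factors and level with all genes as matched by symbol. By at least 6 windows Hox genes stood nearer to the developmental factors. The lists were not compared by a test.

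Most CpG-rich promoters belonged to genes with a promoter region, and among Hox genes several did not. RefSeq promoters were found for 22 of the 38 members, 24 promoters in all. Of Hoxb only Hoxb1, Hoxb4 and Hoxb8 were among them, and of Hoxc only Hoxc4. What follows on sequence thus describes mostly Hoxa and Hoxd. Of 7641 promoters of protein-coding genes with at least 20 CpG in 300 bases, 89.7% belonged to a gene with a promoter region. Among the 11 Hox promoters of this kind the count was 5, those of Hoxa6, Hoxa10, Hoxd1, Hoxd3 and Hoxd13. The 6 without were at Hoxa3, Hoxa5, Hoxa13, Hoxd9, Hoxd10 and Hoxd11, which has another promoter of 4 CpG. With up to 4 CpG, 26.9% of all promoters belonged to a gene with a promoter region, and among Hox promoters these were Hoxa9 and Hoxd4, 2 of 3.

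**Figure D5:**
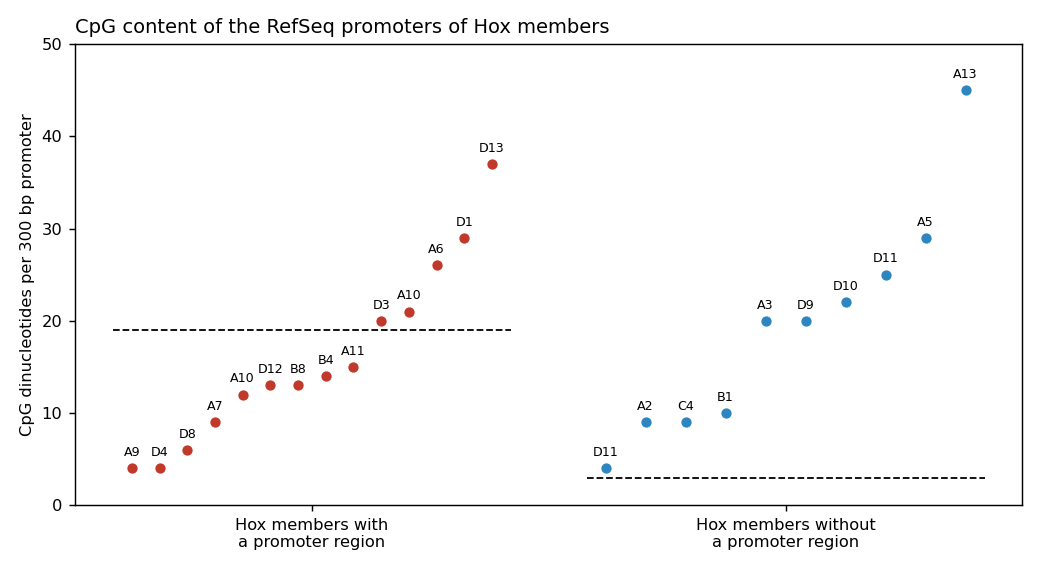
CpG dinucleotides in each 300 bp RefSeq promoter (vertical axis) of Hox members with (red) and without (blue) a promoter region; dashed lines are medians over all protein-coding promoters of genes with (19) and without (3) one. All 10 promoters of Hox genes without one lie above the dashed line of their kind, from 4 to 45. Most promoters shown are of Hoxa and Hoxd genes.

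The median CpG number was 13.5 in the 14 promoters of Hox genes with a promoter region and 20 in the 10 of those without. Over all protein-coding genes the medians ran the other way, 19 with a promoter region and 3 without. All 10 promoters of Hox genes without one held more CpG than that median of 3. Their observed over expected CpG ratio had a median of 0.62, against 0.22. The Hox sequences were mostly of Hoxa and Hoxd, so these medians say little of Hoxb and Hoxc. The counted bases were not matched to regions. The only promoter regions of Hoxb8 and Hoxd12 lay 2631 and 1607 bp upstream.

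Short motifs were counted as letters on both strands of the same 300 bases. The E-box CAGCTG, a form of the site of E proteins, occurred in 4 of 24 Hox promoters (Hoxa3, Hoxa5, Hoxa6 and Hoxa11), and in 15.6% of all. The E-box CAGGTG occurred in 0 of 24, and in 19.7% of all. The TATA box letters TATAAA occurred in Hoxa10, Hoxb8, Hoxd4 and Hoxd13, and in 12.6% of all. These genes had a promoter region, but the scanned bases were not matched to it. The only promoter region of Hoxb8 lay 2631 bp upstream, and that of Hoxd4 was shared with Hoxd3. The AP-1 site TGANTCA was found in 1 (Hoxd11, 6.99% of all), the CTCF core letters AGGGGGC in 2 (Hoxa10 and Hoxd13, 12.9% of all) and AGGTGGC in 1 (Hoxa11, 6.24% of all). The Hox-Pbx letters TGATTNAT were found in 2 (Hoxa2 and Hoxd11, 2.75% of all), and the Ets site CCGGAAGT and the Runx site TGTGGTT in 0 (5.15% and 4.71% of all). A match is a match of letters, overlaps between motifs were not removed, and with 24 promoters these shares correspond to few of them.

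MicroRNA genes lie inside the clusters, and 3 of them were named by a Hox region. The 5' arms of the miR-10 and miR-196 families are shown because their seeds (bases 2 to 8, in capitals) are shared between clusters, as the genes around them are. On GRCm38.p6, miR-10a-5p lies at chr11:96317186-96317208 and miR-10b-5p at chr2:74726074-74726096, both on the plus strand, and miR-196b-5p at chr6:52230129-52230150 on the minus strand. The same miR-196a-5p comes from chr11:96265187-96265208 and chr15:102973365-102973386, on the plus strand.
mmu-miR-10a-5p: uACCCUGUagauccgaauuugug
mmu-miR-10b-5p: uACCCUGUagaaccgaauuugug
mmu-miR-196a-5p: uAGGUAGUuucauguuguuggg
mmu-miR-196b-5p: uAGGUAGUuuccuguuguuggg

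Mir10a, in the Hoxb cluster, lay 1101 bp from the 7-window promoter region of Hoxb4. Mir196b lay 3806 bp and 4011 bp from the regions of 6 and 4 windows at Hoxa10 and Hoxa9. Mir196a-2 lay 3582 bp from the single-window region of Hoxc9. Mir10b and Mir196a-1, in Hoxd and Hoxb, were named by none of the 35 regions. Some long non-coding genes shared regions with coding Hox genes. Hoxaas3 overlapped 3 regions, in introns, Hoxb5os overlapped 4, in introns, and Hoxa11os had its promoter and an exon in the 2-window region at Hoxa11. In all, 18 of the 35 regions overlapped a gene that is no member. The table gives no strand for a region, so the accessible start cannot be assigned to either gene.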

How the data were processed

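The authors deposited a table of comparisons with regions, windows per region, gene names and a p-value per region and comparison. Per the submitters' processing notes, Trim Galore, BWA, Picard and edgeR were used, without roles or versions, on build GRCm39. The sources used here do not give the filters on windows.

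Gene names were parsed from the overlap, left and right columns with Python 3.11.15 and pandas 2.3.3, and matched to members by exact symbol. All members are accounted for, and those overlapped are named with their regions; other genes are named where they share a region, bound a cluster, or are flanking genes or cofactors. T lineage, Trithorax and Polycomb genes fall outside that rule and were picked after their values were seen. The deposited p-values, divided by the number of windows where below 1, were used to check row order and for nothing else. No test was made. Members, lists and bins were chosen with earlier results of these data known. Parsing was checked on simulated rows. RefSeq tables are on GRCm38, so no coordinates were combined, and settings that needed them were replaced by the distances in the table.

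Defining markers were looked up as a check of the cells. A promoter region was present at 12 of 12 T cell genes and 4 of 5 Th1 genes (not Tbx21, which had 4 regions elsewhere in the gene), 3 of 6 B cell genes, 3 of 7 myeloid genes, and 4 of 6 erythroid and progenitor genes. Ms4a1, Cd79a, Cd79b, Lyz2, Csf1r, Cd14, Adgre1, Hbb-bt and Cd34 had no overlapping region. Whether other cells contributed to Hox regions was not tested.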

Additional observations from a re-analysis of the deposited data

How the results depend on the processing

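With regions of at least 6 windows, the median of all regions, the members with an overlapping region went from 27 to 16 and those with a promoter region from 24 to 11 (28.9% of members). Under the other settings run, counts and medians moved by less than 1.5 times: with regions of at least 2 windows the counts were 26 and 23, with flanking genes included 31 members were named, and 20 had a promoter region over an exon or intron or within 1 kb, a setting chosen after the data were seen. Joining regions up to 500 bp apart changed no count of regions, since the smallest gap in the table is 600 bp; joining up to 2 kb, also chosen later, turned the 10 regions of Hoxb into 8. Intersection with RefSeq gene bodies, starts or cluster spans was not run, because that annotation is on another build. The number of windows was not recomputed for joined regions. No paired analysis was possible because values of single samples are not in the table analysed here, and for the same reason no replicate was left out. Library depth is unknown, so its part in the narrow regions was not tested.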

Other observations

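Most of the listed genes that act with Hox proteins or on the clusters had a promoter region in these cells. So did 61.6% of all protein-coding genes, of which 54.6% had 1 of at least 6 windows. Of 9 cofactor genes of the Meis, Pbx and Pknox families, whose proteins bind DNA beside Hox proteins, 9 had a promoter region, and 6 (66.7%) had 1 of at least 6 windows, the widest at Pbx4 with 9 windows. Meis1, a partner of Hoxa9 in blood progenitors, had 1 of 5 windows, and Meis2 and Meis3 had up to 7.

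Among 26 Trithorax and Polycomb genes, 24 (92.3%) had a promoter region, against 61.6% of all protein-coding genes. Their promoter regions had a median of 7 windows, the same as all promoter regions. Kmt2a, which encodes a histone methyltransferase that keeps Hox genes active, had a promoter region of 5 windows and 7 overlapping regions in all. Ezh2 and Suz12, which encode parts of the Polycomb complex that methylates histone H3, had up to 7 and 8 windows. The exceptions were Eed and Kdm6b, which had overlapping regions and no promoter region. Among genes for readers of that mark, Cbx2 and Cbx8 had 7 windows and Cbx7 had 9.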
